A study of Mus musculus with 12 samples.

Results

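The genes described here are those whose response to Klf4 knockdown could be compared between cultured mouse airway smooth muscle cells (SMCs) and lung PDGFR-β+ cells. A gene was taken where its mean was at least 1 TPM (StringTie's length-normalized share of a library) over the 6 libraries of each cell type, which held for 13032 of 52636 identifiers. This mean covers control and knockdown libraries, so a gene could pass through a single group that was high. Among the genes named below, Gdpd2, Inmt, Cmpk2, Angpt1, Dll1 and Msln did so in PDGFR-β+ cells and Mir374b in SMCs, and others may have. The gene just inside this minimum, Glis1, had a lower mean of 1.0001 TPM, and the first outside it, Gm23966, had 0.998 TPM. The response of a gene in a cell type is siKlf4 minus Scr after log2(TPM + 1), so the added 1 shrinks the responses of weakly expressed genes. The difference between the cell types is the response of SMCs minus that of PDGFR-β+ cells, so a positive difference means that the transcript moved upward in SMCs relative to PDGFR-β+ cells. The question asked of it is which genes answer the same knockdown in opposite directions, and which answer in a single cell type.

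The samples were 12 bulk RNA-seq libraries from C57BL/6 mouse cells, with 3 libraries in each of 4 groups. SMCs were commercial cells of tracheal origin from CellBiologics (a cell line in the labels, primary cells in the methods), which the sample titles call lung airway SMCs and for which no age is given, and they received either Scr, a scrambled control RNA, or siKlf4, a small interfering RNA against Klf4. PDGFR-β+ cells came from lungs of 12-weeks old mice and received the same kinds of RNA. The labels call the Scr libraries WT and the siKlf4 libraries Klf4 KD, so the knockdown was made in culture and neither group carried a Klf4 deletion. According to the methods, the PDGFR-β+ cells were sorted by the Zs reporter after tamoxifen in Pdgfrb-CreERT2, ROSA26R(Zs/+) mice, whereas the labels name no reporter. The tissue of origin, the culture and the cell type cannot be told apart. The methods name more than one supplier of siRNA and of transfection reagent and do not tie them to a cell type. The methods speak of 3 independent experiments without tying libraries to animals or cell lots, so the p-values measure the spread between these libraries, which may be technical.

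Krüppel-like factor 4 (KLF4) is a zinc-finger transcription factor that binds GC-rich and CACCC-type elements and can raise or lower transcription depending on its partners. In smooth muscle it is best known for holding down the contractile programme led by serum response factor and myocardin. It also restrains cell division in several tissues and is one of the factors used to reprogramme differentiated cells.

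Klf4 itself fell in both cell types, but not equally. In SMCs it was 89.6, 96.3 and 95 TPM in Scr libraries and 26.5, 16.3 and 18.8 TPM in siKlf4 libraries. In PDGFR-β+ cells it was 144, 146 and 135 TPM in Scr libraries and 12.3, 13.8 and 12.8 TPM in siKlf4 libraries. Its mean was lower by 78.1% (SMCs) and by 90.8% (PDGFR-β+ cells), the log2 fold changes were -2.16 ± 0.16 and -3.35 ± 0.08 (SE, n = 3 against 3), and the difference of 1.19 ± 0.19 passed the threshold (limma, adjusted p = 0.00069). Each difference between the cell types given below is therefore also a difference between an incomplete and a more complete knockdown, and these cannot be told apart.

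Whole-library values bear on several results. Smooth muscle markers (Acta2, Tagln, Myh11, Cnn1 and 6 others) summed to 1511 to 2302 TPM in Scr SMCs and to 5582 to 6434 TPM in Scr PDGFR-β+ cells, so the cells labelled SMCs held less contractile transcript than the PDGFR-β+ cells. In siKlf4 libraries the sums were 3434 to 4207 TPM in SMCs and 4745 to 5048 TPM in PDGFR-β+ cells. Markers of PDGFR-β+ mesenchyme summed to 3610 to 3882 TPM and 3982 to 4690 TPM in the Scr libraries of SMCs and PDGFR-β+ cells. All 9 epithelial markers had group means below 1 TPM, and 6 or 7 of the 8 endothelial markers did. Of the leukocyte markers, 3 were among the genes tested, Cd14 included, whereas Ptprc and Csf1r were not. TPM fixes the total of each library and keeps no record of depth, so the depth is unknown, and levels are set side by side between the cell types only as each library's own share of a fixed total. In the SMC table, 1 Scr and 1 siKlf4 library carry no replicate number, and these 2 libraries stood apart together from the numbered ones. The SMC response had the same sign in the unnumbered pair and in the numbered libraries for every gene below that responded in opposite directions or in SMCs alone. The SMC calls that chose these genes used the same libraries and largely require a shared sign, so this adds no support. In bulk RNA, fewer cells of a kind and less transcript per cell cannot be told apart.

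The difference between the cell types passed the threshold (limma interaction term, two-sided, adjusted p under 0.05) for 4297 genes, 33% of those tested. It was higher in SMCs for 1886 genes (14.5%) and lower for 2411 (18.5%). This split depended on the scaling between libraries. Median-ratio scaling gave 2510 higher and 1913 lower, and quantile normalization gave 2329 higher and 1991 lower. Over all genes tested the median response was 0.03 in SMCs and 0.09 in PDGFR-β+ cells and the median difference was -0.08, against 0.01 under median-ratio scaling. Single-cell-type tests called 28.6% of the same genes in SMCs (16.2% higher and 12.3% lower with siKlf4) and 41.1% in PDGFR-β+ cells (25.5% higher and 15.6% lower).

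Opposite responses, which needed a call in each cell type and a call of the difference, were found for 553 genes. Of these, 306 (2.35% of genes tested) rose in SMCs and fell in PDGFR-β+ cells, and 247 (1.9%) fell in SMCs and rose in PDGFR-β+ cells. In 549 of the 553, Scr and siKlf4 libraries did not overlap in either cell type. The calls themselves largely require this, so it adds no support. Over all genes tested the groups were apart for 47.1% in SMCs and 54.2% in PDGFR-β+ cells, and 10.1% were apart in both with opposite directions. Most opposite responses were modest. The median change in the first class was 0.45 (SMCs) and -0.52 (PDGFR-β+ cells), in the second -0.55 and 0.62, and only 5 and 6 genes reached a log2 change of 1 in both cell types. Without SMC siKlf4 replicate 2 the classes held 179 and 127 genes, and without SMC siKlf4 replicate 3 196 and 128. Their balance also depended on the scaling, with 449 and 205 genes under median-ratio scaling and 372 and 217 under quantile normalization.

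A gene was taken to move in a single cell type where it was called there, the difference was called, and the 95% interval of its response in the other cell type lay within -0.5 to 0.5. By this measure 495 genes rose (3.8%) and 312 fell (2.39%) in SMCs, and 874 rose (6.71%) and 616 fell (4.73%) in PDGFR-β+ cells. These counts depended on single libraries and on the scaling. In SMCs 298 rose and 195 fell without SMC siKlf4 replicate 2, and 343 and 175 without SMC siKlf4 replicate 3. In PDGFR-β+ cells 576 rose and 966 fell under median-ratio scaling. Of the genes in these classes with all libraries, 26, 28, 81 and 94 changed by at least 1 on the log2 scale. A further 338 genes (2.59%) were called in both cell types in the same direction with unequal size, among them 185 that rose more in PDGFR-β+ cells and 33 that rose more in SMCs, and this class held 200, 206 and 221 genes without SMC siKlf4 replicate 2, SMC siKlf4 replicate 3 and SMC Scr replicate 2. The bounded interval allows small changes in the other cell type, so 171 genes, Acta2 among them, count in 2 classes, and 1303 genes with a called difference fell in none.

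**Figure D1:**
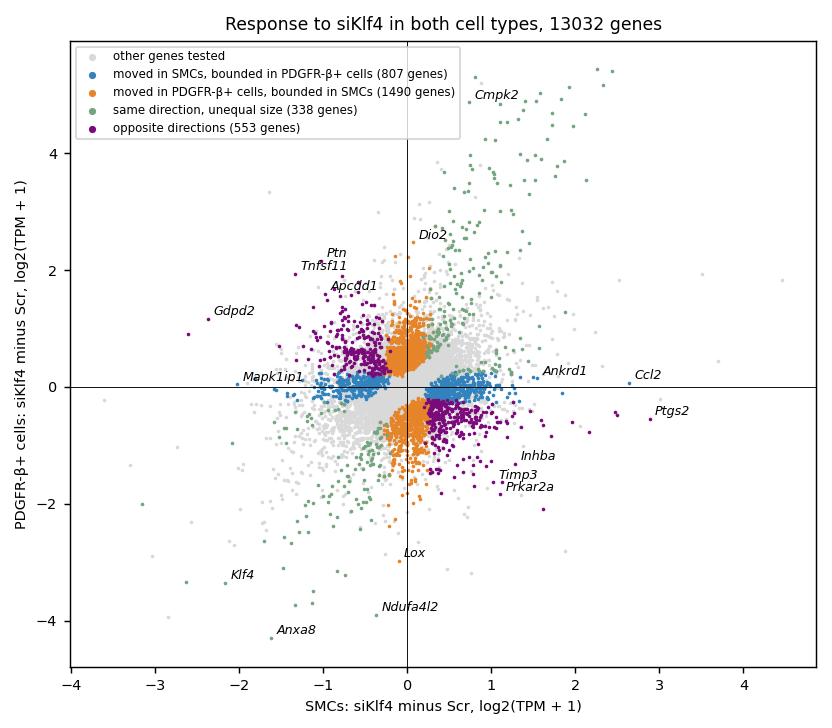
Response to siKlf4 of the 13032 genes tested, in SMCs (horizontal axis) and PDGFR-β+ cells (vertical axis), each as siKlf4 minus Scr on the log2(TPM + 1) scale with 1 point per gene. The 306 genes at the lower right and 247 at the upper left moved in opposite directions, the genes along an axis moved in a single cell type, and the interferon-stimulated genes, such as Cmpk2, form the arm at the upper right.

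Among the genes that rose in SMCs and fell in PDGFR-β+ cells, the largest opposite changes included secreted regulators of TGF-β signalling and matrix. Timp3, an inhibitor of matrix metalloproteinases that is bound to the matrix, was 102, 143 and 156 TPM in Scr SMCs and 255, 263 and 282 TPM with siKlf4. In PDGFR-β+ cells it was about an order of magnitude higher in Scr libraries, at 1725, 1453 and 1767 TPM, and fell to 613, 490 and 492 TPM. The responses were 1.02 ± 0.15 and -1.63 ± 0.12, with a difference of 2.65 ± 0.21 (adjusted p = 7.5e-06). Thbs1 encodes thrombospondin-1, a matrix glycoprotein that can activate latent TGF-β. It rose from 3411, 3789 and 3856 TPM to 6568, 6768 and 6706 TPM in SMCs and fell from 5430, 4395 and 5112 TPM to 2457, 1902 and 1905 TPM in PDGFR-β+ cells. Its difference was 2.12 ± 0.15, and no library of one group reached the range of the other in either cell type.

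The TGF-β superfamily ligands Inhba and Tgfb1 and the receptor Tgfbr1 followed the same pattern. Inhba, whose product forms activin A, was 52.5, 63.9 and 71.1 TPM in Scr SMCs and 138, 166 and 154 TPM with siKlf4, and in PDGFR-β+ cells it went from 160, 152 and 149 TPM to 59.0, 65.0 and 59.2 TPM. Its responses were of nearly equal size, 1.28 ± 0.12 and -1.32 ± 0.07, and its difference was 2.60 ± 0.15 (adjusted p = 1.6e-06). Tgfb1, the TGF-β1 ligand, went from 19.8, 27.5 and 26.3 TPM to 40.6, 52.4 and 49.1 TPM in SMCs and from 48.8, 51.0 and 50.7 TPM to 27.1, 27.1 and 28.2 TPM in PDGFR-β+ cells. Its difference was 1.77 ± 0.17. For both ligands the siKlf4 level of one cell type lay near the Scr level of the other. Tgfbr1, the type I receptor, rose by 1.06 ± 0.09 in SMCs and fell by 0.51 (log2) in PDGFR-β+ cells, a fall that missed the threshold without siKlf4 replicate 2 or 3 (adjusted p = 0.0513 and 0.0529). Tgfbr2, the type II receptor, had a difference of -0.21 ± 0.18 that did not pass (adjusted p = 0.39). Of 21 TGF-β pathway genes, 6 differences were higher and 2 lower in SMCs (38.1% called), and 3 members were opposite. Of 27 BMP and activin genes, 4 differences were higher and 5 lower (33.3% called). Of all genes tested 33% were called, so the pattern belongs to single genes and not to these lists.

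The other genes of this class with the largest changes belong to energy metabolism, cyclic AMP signalling and less understood transcripts. Prkar2a, a regulatory subunit of protein kinase A, rose from 33.6, 28.3 and 28.8 TPM to 79.9, 50.8 and 70.7 TPM in SMCs and fell from 106, 124 and 99.4 TPM to 25.2, 29.6 and 35.5 TPM in PDGFR-β+ cells. Gys1, a glycogen synthase, had responses of 1.00 ± 0.10 and -1.27 ± 0.15, and Pfkp, the platelet form of phosphofructokinase, of 1.19 ± 0.18 and -0.86 ± 0.15. Their groups were apart in both cell types. Inmt, an N-methyltransferase of indole amines, and U90926 were low throughout, with no library above 13.6 TPM, and had differences of 2.29 ± 0.32 and 2.75 ± 0.35.

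The genes that fell in SMCs and rose in PDGFR-β+ cells included a cytokine, a growth factor and regulators of mesenchymal patterning. Tnfsf11 encodes RANKL, the cytokine that drives osteoclast formation. It was 45.6, 40.3 and 37.4 TPM in Scr SMCs, 21.1, 12.6 and 14.4 TPM in siKlf4 SMCs, 2.80, 3.49 and 3.28 TPM in Scr PDGFR-β+ cells and 15.7, 15.3 and 14.0 TPM in siKlf4 PDGFR-β+ cells. With siKlf4 the cell types met at a similar level from opposite sides. Its responses were -1.33 ± 0.18 and 1.94 ± 0.11, with a difference of -3.27 ± 0.22 (adjusted p = 3.4e-06).

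Ptn, the heparin-binding growth factor pleiotrophin, was 95.7, 53.6 and 47.9 TPM in Scr SMCs and 44.8, 24.3 and 25.3 TPM with siKlf4, and rose from 9.74, 11.7 and 13.0 TPM to 60.8, 54.6 and 48.8 TPM in PDGFR-β+ cells. Its difference was -3.19 ± 0.37. The fall in SMCs was near the threshold (adjusted p = 0.048) and was lost without Scr replicate unnumbered or 2, or without siKlf4 replicate 2 or 3 (adjusted p = 0.0932, 0.0795, 0.138 and 0.133). Apcdd1, a membrane inhibitor of Wnt signalling, went from 10.3, 9.05 and 7.90 TPM to 4.67, 3.61 and 4.13 TPM in SMCs and from 11.1, 9.03 and 11.2 TPM to 37.7, 29.8 and 33.3 TPM in PDGFR-β+ cells. It was one of the few named genes of this class with like Scr levels in both cell types, and its difference was -2.57 ± 0.18.

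Gdpd2, a glycerophosphodiester phosphodiesterase, fell from 186, 125 and 128 TPM to 35.0, 23.7 and 23.7 TPM in SMCs. In PDGFR-β+ cells it was below 0.64 TPM in each Scr library and 5.15, 1.80 and 0.922 TPM with siKlf4. It passed the minimum mean there only through the siKlf4 libraries. The rise was lost without any of Scr replicates 1, 2 and 3 or siKlf4 replicate 2 (adjusted p = 0.0799, 0.108, 0.114 and 0.083). It was also lost under median-ratio scaling, under quantile normalization and without the limma trend (adjusted p = 0.0568, 0.0666 and 0.0554). Islr, an immunoglobulin-domain protein of mesenchymal cells, fell from 230, 220 and 185 TPM to 96.7, 78.1 and 82.4 TPM in SMCs and rose from 4.13, 3.07 and 4.60 TPM to 13.6, 7.28 and 7.21 TPM in PDGFR-β+ cells. Osr2, an odd-skipped transcription factor of embryonic mesenchyme, had responses of -0.96 ± 0.19 and 1.49 ± 0.22. For these genes the PDGFR-β+ cells stayed well below the SMCs in level even after their rise.

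Clca3a1, a member of the chloride channel accessory family, and Serpinb2, an intracellular serpin, had differences of -2.03 ± 0.26 and -2.08 ± 0.24. The mitochondrial isoleucine transfer RNA mt-Ti was 14.1 to 20.2 TPM in Scr SMCs and 6.47 to 10.1 TPM with siKlf4, against 13.4 to 20.4 TPM and 42.9 to 46.8 TPM in PDGFR-β+ cells. The microRNA gene Mir374b was listed at up to 4.01 TPM in Scr SMCs and up to 0.476 TPM with siKlf4, and its fall in SMCs was lost without Scr replicate 2 or any siKlf4 replicate (adjusted p = 0.0511 to 0.0783). Mir374b passed the minimum mean in SMCs only through the Scr libraries. Libraries made from long poly-A RNA do not measure mature transfer RNAs or microRNAs, so these 2 values speak of longer RNA over the annotated loci.

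**Figure D2:**
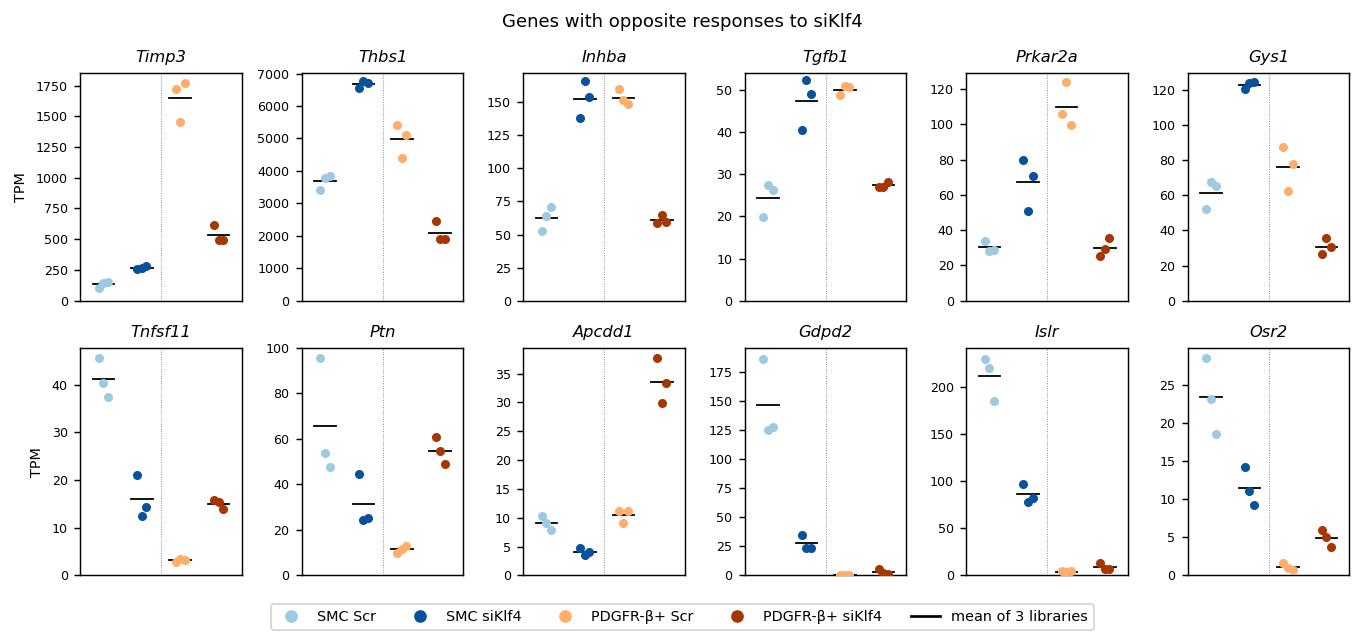
TPM in each of the 12 libraries for 12 genes with opposite responses, with 1 point per library, a black line at the mean of the 3 libraries of a group, and a linear axis from 0 in each panel. The upper panels rose with siKlf4 in SMCs and fell in PDGFR-β+ cells, as Inhba did from 52.5 to 71.1 TPM up to 138 to 166 TPM against 149 to 160 TPM down to 59.0 to 65.0 TPM, and the lower panels did the reverse.

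Promoter sequences are shown for 4 of these genes, 2 of each direction, because KLF4 is a DNA-binding factor and these are the stretches in which its CACCC-type letters can be read. Each runs from 250 bases before to 50 bases after the transcription start in the RefSeq annotation of GRCm38.p6, 5′ to 3′ on the strand of the gene. The letters CCNCACCC were searched on both strands (their reverse complement is GGGTGNGG), and matches are in capitals. Windows on a single chromosome were left out for the opposite genes. Of the 20 with the largest changes, 14 then had a window, and 2 of the 14, Tgfb1 and Timp3, held a match. The 4 windows shown thus include each one with a match and do not stand for the 14. Windows of Gys1, Inhba, Inmt, Pfkp, Prkar2a and U90926, which also rose in SMCs and fell in PDGFR-β+ cells, held none. Of all 32851 windows on file, with no chromosome left out, 16.6% held one, and of the 12202 windows of genes tested, 19.8%. A match is a run of letters, not a bound site, and the data here do not measure KLF4 binding.
Tgfb1, chr7:25686752-25687051, plus strand: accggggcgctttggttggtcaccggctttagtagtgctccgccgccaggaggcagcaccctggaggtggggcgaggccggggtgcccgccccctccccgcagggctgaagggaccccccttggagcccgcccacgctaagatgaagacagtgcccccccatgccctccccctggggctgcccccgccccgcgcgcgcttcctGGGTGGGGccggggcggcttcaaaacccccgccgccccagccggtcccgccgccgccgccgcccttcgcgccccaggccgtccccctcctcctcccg
Timp3, chr10:86300162-86300461, plus strand: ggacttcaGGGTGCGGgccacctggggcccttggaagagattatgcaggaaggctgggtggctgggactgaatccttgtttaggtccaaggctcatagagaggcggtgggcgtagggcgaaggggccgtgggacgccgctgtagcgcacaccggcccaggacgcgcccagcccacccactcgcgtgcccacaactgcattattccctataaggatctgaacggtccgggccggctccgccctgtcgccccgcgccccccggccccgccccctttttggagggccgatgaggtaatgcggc
Tnfsf11, chr14:78307994-78308293, minus strand: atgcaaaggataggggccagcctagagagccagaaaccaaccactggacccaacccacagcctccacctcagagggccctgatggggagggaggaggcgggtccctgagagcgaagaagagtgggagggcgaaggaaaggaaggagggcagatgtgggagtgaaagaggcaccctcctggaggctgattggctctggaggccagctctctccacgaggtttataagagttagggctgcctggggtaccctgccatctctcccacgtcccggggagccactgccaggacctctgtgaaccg
Ptn, chr6:36810130-36810429, minus strand: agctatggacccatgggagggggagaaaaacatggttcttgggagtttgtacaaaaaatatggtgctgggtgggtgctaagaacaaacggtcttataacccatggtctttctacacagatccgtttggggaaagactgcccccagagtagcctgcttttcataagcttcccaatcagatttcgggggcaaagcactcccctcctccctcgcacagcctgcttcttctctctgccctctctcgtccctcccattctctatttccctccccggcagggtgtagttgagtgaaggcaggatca
The match of Tgfb1 begins 47 bases and that of Timp3 242 bases before the start, both on the minus strand relative to the gene. The windows of Tnfsf11 and Ptn held none.

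In level, the genes with opposite responses tended to start apart. Of the 306 that rose in SMCs and fell in PDGFR-β+ cells, 243 (79.4%) had all 3 Scr SMC libraries below all 3 Scr PDGFR-β+ libraries, against 28.3% of all genes tested, and 13 (4.25%) had them above, against 29.2%. Of the 247 that fell in SMCs and rose in PDGFR-β+ cells, 206 (83.4%) had the Scr SMC libraries above and 14 (5.67%) below. The Scr libraries enter both the responses and these levels, and the tables were normalized separately, so the counts are a description of levels with no test.

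Among genes that rose in SMCs and were bounded in PDGFR-β+ cells, Ccl2, the monocyte chemoattractant, had the largest change, 2.63 ± 0.56 in SMCs against 0.08 ± 0.10, and its call in SMCs was lost without siKlf4 replicate 2 or 3 (adjusted p = 0.0515 and 0.0506). Ankrd1, a nuclear ankyrin repeat protein that is widely read as a target of YAP, rose from 20.2, 24.8 and 28 TPM to 68, 72.7 and 77.1 TPM in SMCs and was 118 to 144 TPM and 123 to 156 TPM in Scr and siKlf4 PDGFR-β+ cells. Itga5, the α5 integrin that pairs with β1 to bind fibronectin, rose from 131, 168 and 176 TPM to 400, 365 and 375 TPM, whereas its response in PDGFR-β+ cells was -0.01 ± 0.13. The SMC groups of each were apart and the PDGFR-β+ groups overlapped.

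Plk1, a kinase of mitosis, and Ccne2, the cyclin E2 of the G1/S transition, rose by 1.28 ± 0.17 and 1.34 ± 0.12 in SMCs. Tspan2, a tetraspanin, and Xk, a membrane protein of the Kell blood group complex, rose by 1.33 ± 0.11 and 1.49 ± 0.11. Ptgs2os2 rose from 1.59, 3.71 and 4.84 TPM to 7.98, 19.3 and 17.1 TPM and lost its call without siKlf4 replicate 3 (adjusted p = 0.0509). It is a transcript antisense to or near Ptgs2, and although the libraries were strand-specific, whether counting used the strand is not given in the sources used here. Ptgs2, cyclooxygenase 2, itself rose in SMCs by 2.88 ± 0.38, from 18.5, 36.6 and 42.0 TPM to 143, 321 and 274 TPM, and fell in PDGFR-β+ cells from 215, 209 and 191 TPM to 135, 153 and 133 TPM.

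Among genes that fell in SMCs alone by this measure, Mapk1ip1 had the largest fall, from 26.7, 23.1 and 26.1 TPM to 3.77, 9.09 and 4.57 TPM, against 11.6 to 12.4 TPM and 9.81 to 14.5 TPM in PDGFR-β+ cells. Limch1, an activator of non-muscle myosin, fell from 32.9, 27.6 and 27.4 TPM to 10.0, 9.03 and 4.73 TPM and had a response of 0.16 ± 0.14 in PDGFR-β+ cells. Slc1a5, the glutamine transporter ASCT2, fell from 214, 200 and 175 TPM to 90.8, 68.7 and 68.7 TPM. With siKlf4 the SMC levels came near those of PDGFR-β+ cells, which were 7.29 to 10.6 TPM for Limch1 and 41.3 to 58.7 TPM for Slc1a5 over all 6 libraries. The matrix genes Srpx and Vit, the RAD52-motif gene Rdm1, the GDNF co-receptor Gfra1 and the lipid transporter Abca8b fell by 1.59, 1.44, 1.56, 1.43 and 1.35 on the log2 scale, with differences of -1.55, -1.33, -1.51, -1.27 and -1.23.

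Genes that fell in PDGFR-β+ cells and were bounded in SMCs outnumbered those that fell in SMCs alone (616 against 312). The median falls were close (-0.58 against -0.54), and 94 against 28 changed by at least 1 on the log2 scale. Lox, the lysyl oxidase that crosslinks collagen and elastin, was 3219, 2049 and 3098 TPM in Scr PDGFR-β+ cells and 441, 325 and 295 TPM with siKlf4. In SMCs it was 3555 to 4673 TPM in Scr and 3657 to 4121 TPM in siKlf4 libraries, which overlapped. The response was -2.97 ± 0.21 in PDGFR-β+ cells and -0.10 ± 0.11 in SMCs, with a difference of 2.87 ± 0.26 (adjusted p = 1.9e-05). Loxl4, a related oxidase, had responses of -1.99 ± 0.09 and 0.07 ± 0.11.

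Several of these genes are expressed in many tissues and had tight replicate values. Flot2, a membrane scaffold protein, went from 143, 145 and 126 TPM to 36.6, 37.0 and 38.2 TPM in PDGFR-β+ cells, Mtap, an enzyme of methionine salvage, from 107, 107 and 102 TPM to 26.7, 28.8 and 25.9 TPM, and Hadhb, a subunit of the mitochondrial trifunctional protein of fatty acid oxidation, from 90.7, 80.0 and 81.4 TPM to 21.7, 23.6 and 22.8 TPM. Their responses in SMCs were 0.14 ± 0.06, 0.15 ± 0.12 and -0.06 ± 0.07, although the Flot2 groups of SMCs did not overlap. Serpinb9b, an intracellular serpin, Tinagl1, a matricellular protein, and Tgm2, the tissue transglutaminase, fell by 2.38, 2.26 and 2.01 on the log2 scale, with differences of 2.17, 2.11 and 1.79. The Scr level of Serpinb9b was 337 to 342 TPM in PDGFR-β+ cells and 16 to 19.6 TPM in SMCs.

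Genes that rose in PDGFR-β+ cells and were bounded in SMCs included secreted proteins and members of the interferon response. Dio2, which converts thyroxine to active thyroid hormone, rose from 2.09, 1.03 and 2.16 TPM to 16.2, 12.2 and 14.1 TPM, while SMCs held 83.0 to 88.1 TPM in Scr and 85.1 to 94.4 TPM in siKlf4 libraries. Adamts9, a protease of versican and aggrecan, rose from 6.29, 4.70 and 5.6 TPM to 28.1, 19.2 and 23.6 TPM, around the range of SMCs with either RNA (21.4 to 26.3 TPM). Tnfaip6, the hyaluronan-binding protein TSG-6, had a response of 1.81 ± 0.20 against -0.08 ± 0.12, and Gpr85, an orphan receptor, of 1.78 ± 0.11 against -0.08 ± 0.10. Uba7, which activates ISG15 for conjugation, rose from 5.08, 4 and 6.79 TPM to 31.3, 26.1 and 26.8 TPM, against 15.5 to 18.3 TPM and 14.9 to 19.4 TPM in SMCs. Gbp2, a guanylate-binding protein, and Ifit2, which binds viral RNA, rose by 2.75 ± 0.15 and 2.03 ± 0.13. Gbp2 also rose slightly in SMCs (0.33 ± 0.07, adjusted p = 0.012), and Olfr56, an annotated olfactory receptor, stayed below 6 TPM in every library.

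**Figure D3:**
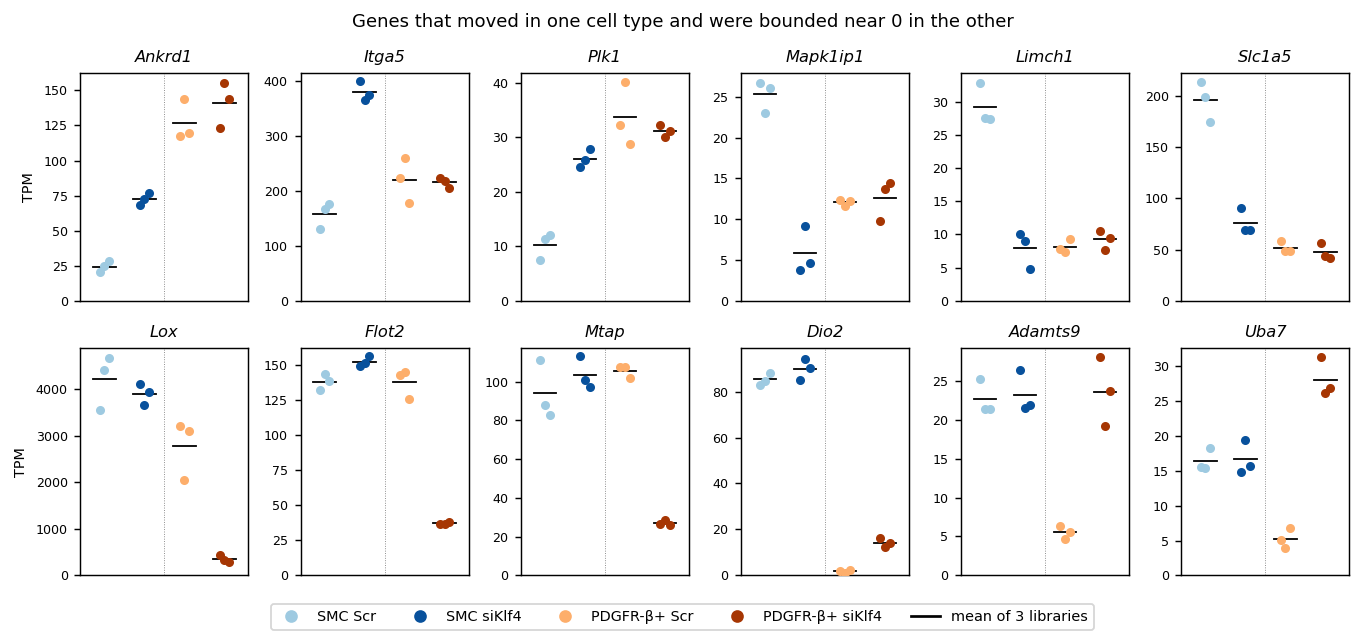
TPM in each of the 12 libraries for genes that moved in SMCs (Ankrd1 to Slc1a5) or in PDGFR-β+ cells (Lox to Uba7) and were bounded in the other cell type, with 1 point per library, a black line at the mean of 3 libraries and a linear axis from 0 in each panel. The siKlf4 libraries of Lox lie at 295 to 441 TPM in PDGFR-β+ cells and at 3657 to 4121 TPM in SMCs.

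Of the genes that moved the same way with unequal size, Ndufa4l2, a HIF-induced relative of a respiratory chain subunit, had the largest positive difference. Ndufa4l2 fell from 45.3, 34.0 and 42.5 TPM to 2.94, 1.73 and 0.985 TPM in PDGFR-β+ cells and from 56.5, 69.8 and 70.8 TPM to 48.0, 50.5 and 52.7 TPM in SMCs, a fall that was lost when any numbered SMC library or the unnumbered siKlf4 library was left out (adjusted p = 0.07 to 0.105). Anxa8, an annexin, and Serpinb6c, a serpin, fell in both cell types with differences of 2.68 ± 0.16 and 2.56 ± 0.23, although the fall of Serpinb6c in SMCs was lost in the numbered libraries with the replicate number as a block (adjusted p = 0.0615). The 3 named genes that rose more in PDGFR-β+ cells are induced by interferon. Cmpk2, a mitochondrial nucleotide kinase, rose from 0.739, 0.681 and 1.36 TPM to 49.0, 63.8 and 52.0 TPM in PDGFR-β+ cells and from 2.04, 2.82 and 2.44 TPM to 4.62, 4.28 and 5.22 TPM in SMCs, where its call was lost with that block (adjusted p = 0.0787). Phf11d and Iigp1, an immunity-related GTPase, had differences of -3.74 ± 0.30 and -3.49 ± 0.43.

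Gene lists are described below by how many of their tested members were called and by the median response. Over all genes tested, 33% had a called difference, and the medians were 0.03 in SMCs and 0.09 in PDGFR-β+ cells. Of the same genes, 16.2% rose and 12.3% fell in SMCs, and 25.5% rose and 15.6% fell in PDGFR-β+ cells. Lists with counts near these shares are given for completeness alone. The lists were not tested as sets, and members of a list are not independent of each other.

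Genes of G2 and mitosis differed most often in the direction of SMCs. Of 52 members, 47 rose and none fell in SMCs, and 1 rose and 21 fell in PDGFR-β+ cells. The difference was higher in SMCs for 46 and lower for none, and 19 members met the criteria for opposite responses. The members summed to 600, 674 and 735 TPM in Scr SMCs and to 1220, 1236 and 1146 TPM with siKlf4, and to 1577, 1840 and 1404 TPM and 1334, 1426 and 1276 TPM in PDGFR-β+ cells, where the groups overlapped. Mki67, which encodes the proliferation antigen Ki-67, was 11.6, 11.7 and 12.5 TPM in Scr SMCs, 31.5, 28.6 and 25.5 TPM in siKlf4 SMCs, 44.8, 55.0 and 37.7 TPM in Scr PDGFR-β+ cells and 28.1, 32.8 and 26.7 TPM in siKlf4 PDGFR-β+ cells. Ccna2, cyclin A2, and Aurka, a spindle kinase, had responses of 1.07 and -0.60 each. The medians of the list were 0.81 and -0.35.

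DNA replication and S phase genes shared the rise in SMCs but not the fall. Of 52, 39 rose and none fell in SMCs, while 14 rose and 2 fell in PDGFR-β+ cells, and 18 differences were higher and 2 lower in SMCs. Rrm2, the small subunit of ribonucleotide reductase, moved in opposite directions (0.62 and -0.84). Mcm5, a subunit of the replicative helicase, had responses of 1.52 and 0.38, the latter not past the threshold. Among regulators of the cycle, Ccnd1, cyclin D1, rose slightly in SMCs (0.40 ± 0.10) and fell from 561, 566 and 548 TPM to 134, 180 and 164 TPM in PDGFR-β+ cells. Cdkn1c, the CDK inhibitor p57, fell in SMCs from 117, 94.9 and 74.3 TPM to 71.4, 44.8 and 47.3 TPM and rose in PDGFR-β+ cells from 2.13, 1.83 and 2.63 TPM to 8.12, 8.90 and 8.13 TPM. Hmga2, a chromatin protein of embryonic mesenchyme, had responses of 1.72 ± 0.13 and -0.84 ± 0.13.

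Glycolytic genes and targets of HIF were also split. Of 38, 19 rose and 2 fell in SMCs and 7 rose and 11 fell in PDGFR-β+ cells, with 19 differences higher and 2 lower in SMCs and 7 opposite responses. The summed level went from 9359, 10794 and 10519 TPM to 14118, 14694 and 14911 TPM in SMCs and from 11921, 11270 and 10794 TPM to 9426, 9582 and 9899 TPM in PDGFR-β+ cells, with no overlap in either. Bnip3, a mitophagy receptor, rose by 0.79 ± 0.08 and fell by 1.69 on the log2 scale, from 235, 177 and 233 TPM to 65.2, 69.8 and 61.1 TPM. Tpi1, triosephosphate isomerase, Hk2, hexokinase 2, and Eno1, enolase, rose by 0.66, 0.97 and 0.57 in SMCs and fell by 0.87, 0.69 and 0.36 (log2) in PDGFR-β+ cells. Slc2a3, the glucose transporter GLUT3, ran the other way, with responses of -0.33 (not past the threshold) and 0.94. Egln3, a HIF prolyl hydroxylase, rose in both (1.04 and 0.30). Pdk1, which inhibits pyruvate dehydrogenase, had a difference of 0.96 ± 0.14. Of 76 nuclear genes of oxidative phosphorylation, 10.5% had a called difference.

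**Figure D4:**
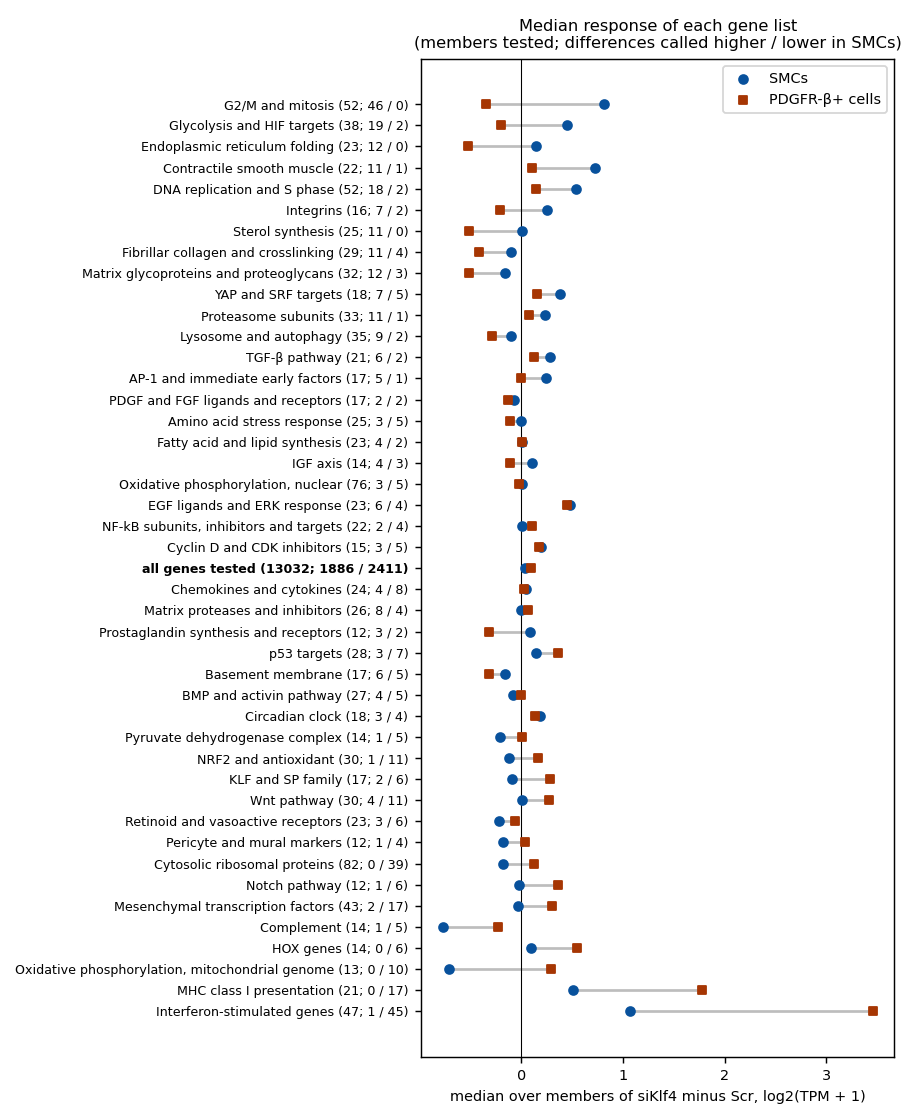
Median response to siKlf4 over the tested members of each list with at least 10 members, in SMCs (circles) and PDGFR-β+ cells (squares), on the log2(TPM + 1) scale. The numbers after each list are the members tested and the differences called higher and lower in SMCs, lists are ordered by their median difference from the G2 and mitosis genes (1.16) to the interferon-stimulated genes (-2.24), and the bold line holds all 13032 genes tested.

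Contractile, adhesion and YAP-related genes rose more often in SMCs. Of 22 contractile smooth muscle genes, 15 rose and none fell in SMCs and 8 rose and 5 fell in PDGFR-β+ cells, with 11 differences higher and 1 lower in SMCs. The summed level of the list rose from 4582, 5879 and 5778 TPM to 9926, 9487 and 9425 TPM in SMCs and was 11428 to 13052 TPM and 10314 to 11376 TPM in PDGFR-β+ cells. Acta2, α-smooth muscle actin, was 1031, 1522 and 1567 TPM in Scr SMCs and 3072, 2455 and 2691 TPM with siKlf4, against 4594, 4545 and 3969 TPM and 3657, 3454 and 3606 TPM in PDGFR-β+ cells. Its fall in PDGFR-β+ cells (-0.29 ± 0.08) was lost under quantile normalization (-0.15) and without Scr replicate 1 or 2 or siKlf4 replicate 2 or 3 (adjusted p = 0.0517 to 0.0961). Tagln, transgelin, had responses of 0.81 ± 0.20 and -0.54 ± 0.09, and Acta2 and Tagln rose by 1.57 and 1.37 in the unnumbered SMC pair and by 0.73 and 0.53 in the numbered libraries. Myh11, smooth muscle myosin, rose in both cell types (1.57 and 0.66), and Mylk, myosin light chain kinase, rose in PDGFR-β+ cells (1.05) with a response of 0.15 in SMCs.

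Of 16 integrins, 7 rose and 1 fell in SMCs and 1 rose and 5 fell in PDGFR-β+ cells. Itgav, the αv chain that can activate latent TGF-β, was 46.1, 49.3 and 50.8 TPM in Scr SMCs and 86.3, 94.8 and 87.4 TPM with siKlf4, and 131, 130 and 103 TPM and 91.0, 87.9 and 75.6 TPM in PDGFR-β+ cells. Of 18 YAP and SRF targets, 11 rose and 1 fell in SMCs and 6 rose and 5 fell in PDGFR-β+ cells. Their differences were split, with 7 higher and 5 lower in SMCs, and 3 members rose in PDGFR-β+ cells and were bounded in SMCs. The matricellular gene Ctgf and the receptor kinase Axl were among the 4 with opposite responses (1.26 and -0.27, 0.77 and -0.66). The fall of Ctgf in PDGFR-β+ cells was near the threshold (limma, adjusted p = 0.042).

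Genes of the fibrillar collagen and matrix glycoprotein lists fell more often in PDGFR-β+ cells than in SMCs. Of 29 fibrillar collagen and crosslinking genes, 3 rose and 7 fell in SMCs and 1 rose and 15 fell in PDGFR-β+ cells, with medians of -0.10 and -0.42. Besides Lox and Loxl4, Col6a3, a collagen VI chain, fell by 1.46 (log2) in PDGFR-β+ cells with a response of -0.11 in SMCs. Plod1, a lysyl hydroxylase, moved in opposite directions (0.46 and -0.77). Col3a1, collagen III, ran against the list, from 1503, 1300 and 1232 TPM to 821, 552 and 593 TPM in SMCs and a response of -0.13 ± 0.24 in PDGFR-β+ cells. Its difference of -0.92 ± 0.32 barely passed (adjusted p = 0.046) and was lost under median-ratio scaling, in the numbered SMC libraries (adjusted p = 0.0688 and 0.0512) and without any of 8 libraries, among them PDGFR-β+ Scr replicate 2 (-0.67, adjusted p = 0.0861) and SMC siKlf4 replicate 2 (adjusted p = 0.102). Col1a1 and Fn1, collagen I and fibronectin, had differences of 0.40 ± 0.20 and 0.25 ± 0.18 that did not pass.

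Of 32 matrix glycoproteins and proteoglycans, 6 rose and 8 fell in SMCs and 5 rose and 19 fell in PDGFR-β+ cells. Fbln2, fibulin-2, fell from 2040, 1816 and 1853 TPM to 374, 321 and 315 TPM in PDGFR-β+ cells and overlapped in SMCs (546 to 826 TPM and 512 to 746 TPM). Prelp, a leucine-rich proteoglycan, fell in both (-1.12 and -3.48). Of 17 basement membrane genes, 3 rose and 8 fell in SMCs and 3 rose and 9 fell in PDGFR-β+ cells. Among them Agrn, agrin, rose in both, from 12.1, 10.9 and 11.5 TPM to 214, 166 and 173 TPM in PDGFR-β+ cells and by 1.43 ± 0.14 in SMCs, and Nid1, nidogen, moved in opposite directions (0.55 and -1.02). Of 26 matrix proteases and inhibitors, 7 rose and 6 fell in SMCs and 9 rose and 10 fell in PDGFR-β+ cells. Mmp10, stromelysin-2, rose from 4.59, 9.51 and 9.19 TPM to 40.5, 101 and 73.4 TPM in SMCs and overlapped in PDGFR-β+ cells, where no library passed 4.89 TPM. Plaur, the receptor of urokinase, was opposite (0.84 and -0.98).

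Genes of folding in the endoplasmic reticulum and of sterol synthesis fell more often in PDGFR-β+ cells than in SMCs. Of 23 genes of folding in the endoplasmic reticulum, 5 rose and none fell in SMCs and none rose and 17 fell in PDGFR-β+ cells, with medians of 0.14 and -0.52 and a summed level that went from 9160, 8737 and 9152 TPM to 6248, 6189 and 6011 TPM in PDGFR-β+ cells. Dnajb11, a co-chaperone of BiP, and Edem1, which sorts misfolded glycoproteins, moved in opposite directions (0.32 and -1.14, 0.57 and -0.57). Hyou1, a chaperone, fell by 1.11 (log2) in PDGFR-β+ cells with a response of 0.17 in SMCs. Of 25 sterol synthesis genes, 2 rose and 2 fell in SMCs and none rose and 15 fell in PDGFR-β+ cells. Idi1, isopentenyl-diphosphate isomerase, fell from 38.4, 28 and 41.0 TPM to 13.3, 9.30 and 10.5 TPM there. Of 23 genes of fatty acid and lipid synthesis, 4 rose and 3 fell in SMCs and 6 rose and 5 fell in PDGFR-β+ cells. Of 35 lysosome and autophagy genes 3 rose and 4 fell in SMCs and 1 rose and 19 fell in PDGFR-β+ cells. Ctsk, cathepsin K, moved in opposite directions (0.21 and -0.96). Of 33 proteasome subunits 16 rose and none fell in SMCs and 6 rose and 4 fell in PDGFR-β+ cells, and Psma1 and Psmc1 were opposite (0.30 and -0.62, 0.24 and -0.60).

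The interferon response ran the same way in both cell types and was far larger in PDGFR-β+ cells. Of 47 interferon-stimulated genes, 42 rose and 1 fell in SMCs, 46 rose and 1 fell in PDGFR-β+ cells, and 45 differences were lower in SMCs, with median responses of 1.07 and 3.46. Their summed level rose from 3573, 4035 and 4198 TPM to 6487, 6210 and 6518 TPM in SMCs and from 1869, 1573 and 2212 TPM to 12062, 11789 and 11507 TPM in PDGFR-β+ cells, so the cells with the lower Scr level ended higher. Isg20, an exonuclease, was the member with opposite responses (-0.33 and 1.18), and Ifi27 fell in PDGFR-β+ cells (-0.88). Of 21 genes of MHC class I presentation, 12 rose in SMCs and 21 in PDGFR-β+ cells, and none fell. Psmb8, an immunoproteasome subunit, had responses of 0.92 and 4.25, and B2m, the light chain of class I molecules, of 1.00 and 1.97. Transfected small RNA is itself known to set off interferon responses in some settings, and whether it did so here was not tested.

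Inflammatory genes outside that response had no common direction. Ccl5, a chemokine for T cells, rose from 2.36, 1.18 and 1.82 TPM to 101, 107 and 92.9 TPM in PDGFR-β+ cells, with a response of 0.87 ± 0.30 in SMCs that did not pass (adjusted p = 0.069). Tslp, an epithelial-type cytokine, rose in both (0.72 and 3.35). Ccl7, a chemokine close to Ccl2, and Csf1, the macrophage growth factor, were opposite with a rise in SMCs (1.17 and -0.58, 0.70 and -0.57). Il15 and Kitl, the ligand of KIT, were opposite with a fall in SMCs (-0.77 and 1.15, -0.70 and 0.98). Among NF-kB genes, the adhesion molecule Icam1 rose in SMCs and fell in PDGFR-β+ cells (0.36 and -1.25), while Birc2 and the kinase Ikbke did the reverse. Of 14 complement genes, 11 fell and 1 rose in SMCs and 2 fell and 1 rose in PDGFR-β+ cells. Cfb, factor B, was opposite, falling from 177, 176 and 188 TPM to 141, 98.8 and 125 TPM in SMCs and rising from 3.91, 2.35 and 4.40 TPM to 20.0, 13.8 and 10.9 TPM in PDGFR-β+ cells. Il6 and Nfkb1 had differences of -0.22 and -0.34 that did not pass (adjusted p = 0.77 and 0.08).

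Patterning factors rose more often in PDGFR-β+ cells. Of 43 mesenchymal transcription factors, 4 rose and 7 fell in SMCs and 16 rose and 2 fell in PDGFR-β+ cells, with 2 differences higher and 17 lower in SMCs. Tcf21 and Osr1, factors of lung and visceral mesenchyme, fell in SMCs (-1.28 and -0.89) and had responses of 0.11 and 0.44 in PDGFR-β+ cells, neither past the threshold. Gli2, the effector of hedgehog signalling, and Snai2, a zinc-finger repressor, rose in PDGFR-β+ cells (1.46 and 0.99) with responses of 0.31 and 0.03 in SMCs. Prrx2 fell in both. Of 14 HOX genes, 2 rose and 1 fell in SMCs, 7 rose and none fell in PDGFR-β+ cells, and 6 differences were lower and none higher in SMCs, although 1 was higher under median-ratio scaling. Hoxb7 rose by 0.99 in PDGFR-β+ cells with a response of 0.05 in SMCs.

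Signalling pathways that pattern mesenchyme had mixed members. Of 12 Notch genes 6 rose and 1 fell in PDGFR-β+ cells and 3 rose and 2 fell in SMCs. Jag1, Dll1 and Notch1 rose in PDGFR-β+ cells (0.95, 1.16 and 1.09) with SMC responses of 0.01, -0.30 and 0.19, whereas the target gene Hes1 was opposite, rising from 0.783, 1.52 and 1.83 TPM to 7.70, 8.66 and 7.83 TPM in SMCs and falling from 42.5, 56.4 and 39.2 TPM to 31.6, 30.5 and 27.4 TPM in PDGFR-β+ cells. Of 30 Wnt genes, 4 differences were higher and 11 lower in SMCs, and Nkd1, an inhibitor induced by the pathway, was opposite like Apcdd1 (-0.48 and 1.14). Bmp6 was opposite, from 3.33, 3.59 and 2.59 TPM to 1.36, 0.892 and 0.863 TPM in SMCs and from 3.39, 3.56 and 3.85 TPM to 7.38, 6.92 and 7.80 TPM in PDGFR-β+ cells, and Grem1, a secreted BMP antagonist, was opposite in the other sense (0.66 ± 0.17 and -1.23 ± 0.11). Bmpr2, a type II BMP receptor, fell in PDGFR-β+ cells (-1.42) with a response of -0.03 in SMCs. Of 17 KLF and SP family genes, Klf4 included, none rose and 4 fell in SMCs and 7 rose and 4 fell in PDGFR-β+ cells, with Klf5 and Klf13 at 0.70 and 0.63 in PDGFR-β+ cells and -0.07 and -0.18 in SMCs. Egr1 and Bhlhe40, early response and clock-related factors, rose in SMCs and fell in PDGFR-β+ cells (0.94 and -0.77, 0.79 and -1.49). The EGF receptor gene Egfr did the reverse (-0.44 and 0.84).

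The responses of ribosomal protein genes and of genes of the mitochondrial genome were often lower in SMCs than in PDGFR-β+ cells. Of 82 cytosolic ribosomal protein genes, none rose and 24 fell in SMCs and 15 rose and 1 fell in PDGFR-β+ cells, and 39 differences were lower and none higher, against 22 lower under median-ratio scaling. Rps24 had responses of -0.41 and 0.60. Of 13 protein genes of the mitochondrial genome, 9 fell in SMCs and 3 rose in PDGFR-β+ cells, with 10 differences lower. They summed to 40426, 33542 and 33948 TPM in Scr SMCs and 21784, 24758 and 20986 TPM with siKlf4, and to 32925, 31016 and 36956 TPM and 34661, 41131 and 38691 TPM in PDGFR-β+ cells, where the groups overlapped. These abundant transcripts take a sizeable part of a total that TPM holds fixed, so their part in the responses of other genes was not tested beyond the scalings above. Of 30 NRF2 and antioxidant genes, 3 rose and 9 fell in SMCs and 11 rose and 6 fell in PDGFR-β+ cells. Gstm1, a glutathione transferase, was opposite (-0.70 and 1.14), and Cat, catalase, fell in both (-0.49 and -1.96).

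**Figure D5:**
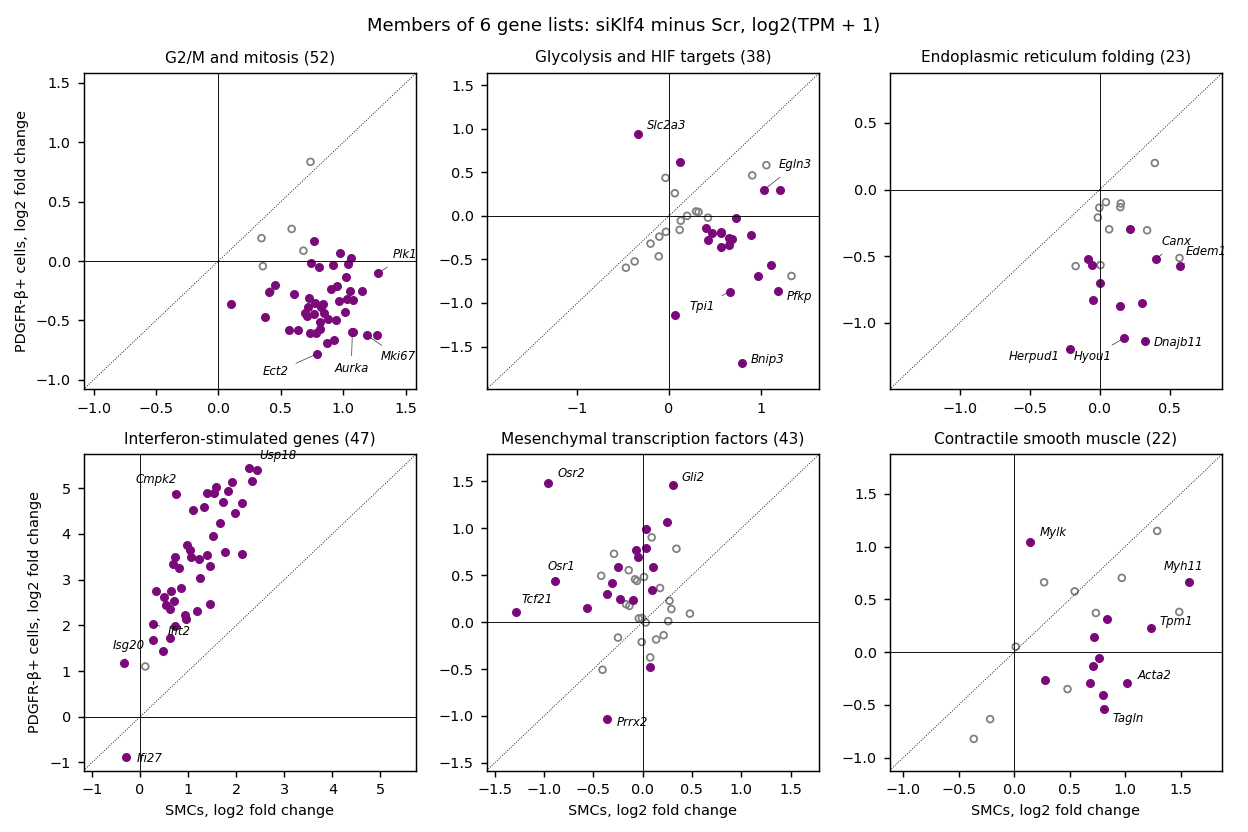
Responses of the tested members of 6 lists in SMCs (horizontal axis) and PDGFR-β+ cells (vertical axis), as log2 fold change on the log2(TPM + 1) scale, with filled points where the difference between the cell types passed the threshold and open points where it did not, and a dotted line of equal response. The G2 and mitosis genes sit at the lower right (medians 0.81 and -0.35), the interferon-stimulated genes above the line (1.07 and 3.46), the filled points of the folding genes all lie below the line, and the other lists have filled points on both sides of it.

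The sum of the mesothelial markers was 35.8 to 54.0 TPM in Scr and 17.8 to 22 TPM in siKlf4 libraries of PDGFR-β+ cells, against 20.6 to 30.7 TPM and 25.2 to 32.9 TPM in SMCs. The keratin Krt19 was the member with opposite responses, from 4.06, 3.21 and 3.58 TPM to 15.2, 24.6 and 20.1 TPM in SMCs and from 29.3, 38.4 and 21.6 TPM to 14.5, 18.9 and 16.6 TPM in PDGFR-β+ cells. Msln, mesothelin, fell in both, from a mean of 19.1 to 7.14 TPM in SMCs and of 8.25 to 0.663 TPM in PDGFR-β+ cells (responses -1.29 and -2.48). Leukocyte markers summed to 45.6 to 49.6 TPM and 25.2 to 29.8 TPM in Scr and siKlf4 SMCs and to 35.7 to 37.2 TPM and 29.2 to 34.0 TPM in PDGFR-β+ cells. Cd14 of that list was opposite (responses -0.87 and 0.55). Its mean went from 41.0 to 22.1 TPM in SMCs and from 6.88 to 10.5 TPM in PDGFR-β+ cells. The part of such cells in the results above was not tested.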

How the data were processed

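Strand-specific RNA-seq of mRNA purified on oligo-dT beads was deposited as 2 tables of TPM values, one of 6 SMC libraries and one of 6 PDGFR-β+ libraries. The authors aligned trimmed paired reads to mm10 (GENCODE annotation) with HISAT2 and estimated TPM with StringTie, whose versions are not given in the sources used here, and ran DESeq2 on counts that are not used here. TPM keeps no record of depth, so depth and counting error are unknown, and the 2 tables were normalized separately. The tables were joined by gene identifier, and no sample column was left unused (0).

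Values were analysed as log2(TPM + 1) with limma 3.58.1 in R 4.3.3 (trend, two-sided, Benjamini-Hochberg over all genes tested, threshold 0.05). The difference was fitted over all 12 libraries, and each response on the 6 libraries of its cell type. With 3 libraries against 3, an exact permutation test of 1 gene cannot go below p = 0.1. Tables and figures were made with Python 3.11.15, pandas 2.3.3, numpy 2.4.6 and matplotlib 3.10.9. In a test on simulated data for the difference, 67% of genes changed by 1 and 96% of genes changed by 2 on the log2 scale were recovered, and 11 of 12801 unchanged genes were called. The simulation gave each library independent noise and changed few genes, in SMCs alone. In the data the unnumbered SMC libraries deviated together and 33% of genes were called, so these shares do not measure the error rate here.

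Genes named were the 10 of each opposite class with the largest smaller change, the 8 of each single-cell-type class with the largest change, 3 of unequal size in each direction (groups not overlapping), genes the study names, and up to 4 members of a list by difference, with those of an opposite class. Other list members, such as Eno1, Itgav and Egln3, were chosen after their values were seen. The members and lists were chosen with earlier results of these data known. Alternatives changed the pseudocount, filter, scaling, variance prior, fit, libraries, bound and size of difference. Promoters are RefSeq windows of GRCm38.p6. Some genes that met the naming rule are not reported here.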

Additional observations from a re-analysis of the deposited data

Results flagged for a closer look

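For each gene in this section the responses of the cell types differed past the threshold when the difference itself was tested (limma interaction term, adjusted p under 0.05), which is what drew attention to it. Values are SMC minus PDGFR-β+ differences of log2 fold changes. Groups of 3 libraries were too small to look for single outlying samples.

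Among genes that rose in SMCs and fell in PDGFR-β+ cells, the differences were 2.94 for Prkar2a, 2.75 for U90926, 2.65 for Timp3, 2.60 for Inhba, 2.29 for Inmt, 2.27 for Gys1, 2.12 for Thbs1, 2.05 for Pfkp, 1.77 for Tgfb1, 1.57 for Tgfbr1 and 1.30 for Acta2. Among genes that fell in SMCs and rose in PDGFR-β+ cells, they were -3.54 for Gdpd2, -3.27 for Tnfsf11, -3.19 for Ptn, -2.57 for Apcdd1, -2.50 for mt-Ti, -2.45 for Osr2, -2.38 for Mir374b, -2.32 for Islr, -2.08 for Serpinb2 and -2.03 for Clca3a1.

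Among genes that moved in SMCs and were bounded in PDGFR-β+ cells, the rises differed by 2.56 for Ccl2, 1.94 for Ptgs2os2, 1.57 for Tspan2, 1.40 for Ankrd1, 1.38 for Plk1, 1.31 for Xk, 1.28 for Itga5 and 1.16 for Ccne2. The falls differed by -2.07 for Mapk1ip1, -1.98 for Limch1, -1.55 for Srpx, -1.51 for Rdm1, -1.33 for Vit, -1.27 for Gfra1, -1.23 for Abca8b and -1.22 for Slc1a5. Among genes that fell in PDGFR-β+ cells and were bounded in SMCs, the differences were 2.87 for Lox, 2.17 for Serpinb9b, 2.11 for Tinagl1, 2.07 for Mtap, 2.06 for Loxl4, 2.00 for Flot2, 1.79 for Tgm2 and 1.78 for Hadhb. Among those that rose in PDGFR-β+ cells, they were -2.42 for Gbp2, -2.40 for Dio2, -2.38 for Olfr56, -2.22 for Uba7, -1.89 for Tnfaip6, -1.87 for Adamts9, -1.85 for Gpr85 and -1.76 for Ifit2.

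Of genes that moved the same way by unequal amounts, Ndufa4l2, Anxa8 and Serpinb6c differed by 3.52, 2.68 and 2.56, and Cmpk2, Phf11d and Iigp1 by -4.13, -3.74 and -3.49. Of the genes the study names, Klf4 differed by 1.19, Pdk1 by 0.96, Foxm1 by 0.91 and Col3a1 by -0.92.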

How the results depend on the processing

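Of the 63 differences listed above, 62 passed the threshold under every alternative that gave a value for the gene (17 to 22 of 22), Col3a1 being the exception. Most were chosen for their size in these same libraries, so this is no independent support. Of all 223 named genes with a called difference, 207 passed under every alternative. Calls within a cell type were less steady, and those of Acta2, Gdpd2, Ptn, Mir374b, Ccl2 and Ndufa4l2 were among those lost under some alternative. Of 12136 single-gene values under alternatives, 0 changed sign while called, 416 lost and 19 gained a call. Counts moved more. Without the filter on low values the opposite classes held 197 (up in SMCs) and 131 genes. With median-ratio scaling, 576 genes rose and 966 fell in PDGFR-β+ cells alone. Asking for a difference of at least 1 left 1168 differences, 174 opposite genes with a rise in SMCs, 31 and 30 that rose and fell in SMCs alone, 78 and 106 in PDGFR-β+ cells alone, and 140 of unequal size. A bound of 0.3 left 183, 80, 283 and 198 genes in the single-cell-type classes, since it asks for narrower intervals. A term for the unnumbered SMC libraries, chosen after seeing the data, gave 402 opposite genes with a fall in SMCs, 470 that fell in SMCs alone and 528 of unequal size. Leaving out genes called in the other cell type, also chosen after seeing the data, left 436, 288, 832 and 547. Other causes were not tested.

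Leaving out 1 library in turn gave 3660 to 4123 differences, 179 to 322 and 127 to 223 opposite genes, 298 to 486 and 175 to 304 in SMCs alone, 592 to 808 and 467 to 636 in PDGFR-β+ cells alone, 200 to 343 of unequal size, 2216 to 3563 calls in SMCs when an SMC library was left out (3910 with all), and 4207 to 5298 calls in PDGFR-β+ cells when a PDGFR-β+ library was left out (5559 with all). The opposite classes fell to 179 and 127 genes without SMC siKlf4 replicate 2, and to 196 and 128 without SMC siKlf4 replicate 3, and the second to 143 without SMC Scr replicate 2.

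Same-numbered libraries did not deviate together in PDGFR-β+ cells (correlations 0.0732, -0.0158 and 0.0043), so the numbers were not taken as a pairing, although those of SMCs were 0.361, 0.185 and 0.199. Between an unnumbered SMC library and a numbered one with the other RNA, the correlations were -0.217 to -0.19. The fits behind the calls above hold no term for this shared deviation in SMCs. With the replicate block, on numbered libraries, 1767 differences were higher and 2115 lower in SMCs (3882 in all), and SMC calls went from 3910 to 2853. Of single-gene values it ended 15 calls in SMCs, 2 in PDGFR-β+ cells and 8 differences, and 3 differences passed. The SMC calls of Cmpk2, Mir374b and Serpinb6c (adjusted p = 0.0787, 0.0728 and 0.0615), and of Ctsk, Dnajb11, Nkd1, Psmc1 and Tslp (0.112, 0.078, 0.0589, 0.0737 and 0.0881) were among those lost, as was the difference of Dll1 (0.0705), and the differences of Fn1, Itgb3 and Pdgfra passed (0.0468, 0.0373 and 0.0463). Every alternative in the plan was run. Depth is unknown, so it sets no limit that can be stated.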

Other observations

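Other lists held values not given above. Of 28 p53 targets, 9 rose and 4 fell in SMCs and 16 rose and 4 fell in PDGFR-β+ cells, with Bbc3, which encodes the death protein PUMA, at -0.28 (not past the threshold) and 1.22. Of 23 genes of EGF ligands and the ERK response, 14 rose and 1 fell in SMCs and 13 rose and 3 fell in PDGFR-β+ cells, with Ereg, the ligand epiregulin, opposite at 0.64 and -0.48. Of 23 retinoid and vasoactive receptor genes, 2 rose and 9 fell in SMCs and 4 rose and 6 fell in PDGFR-β+ cells. There Ednrb, an endothelin receptor, had responses of -0.32 (not past the threshold) and 1.70, and Rarb, a retinoic acid receptor, of 0.21 (not past the threshold) and -1.57. Of 12 pericyte and mural markers, Cspg4, which encodes NG2, fell in both (-0.53 and -1.97), and Angpt1, the ligand of the TIE2 receptor, had responses of -0.10 (not past the threshold) and 1.29.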
